A study of Mus musculus with 9 samples.

Results

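PARP9, PARP10, PARP11, PARP12 and PARP14 are members of the poly(ADP-ribose) polymerase family whose genes are known to respond to interferon, and DTX3L is the ubiquitin ligase that partners PARP9. Their genes, Parp9, Parp10, Parp11, Parp12, Parp14 and Dtx3l, were taken by symbol from the first column of a table of FPKM (fragments counted per kilobase of transcript and scaled to the mapped fragments of the library), where each of the 6 had 1 row among 24346. The table held RNA sequencing of 9 libraries of cultured mammary tumour cells from FVB/N mice with tumours induced by MMTV-neu, a transgene that expresses the neu (Erbb2) oncogene from the promoter of mouse mammary tumour virus. Labels gave 5 libraries as Jak1 wild type (lines 45555, 47298, 45566B, 33373 and 33377) and 4 as Jak1 knockout (45555, 47298, 45566B and 46295). Jak1 encodes Janus kinase 1, which relays signals from interferon and gp130-type cytokine receptors. Lines 45555, 47298 and 45566B were present in both states, named Wt and Cre in their titles, and were treated with puromycin in both. The title of 46295 carries the suffix D6. Cells of every line were kept as adherent cultures, with hydrocortisone, insulin, EGF, linoleic acid and serum added to the medium, and the labels name no interferon treatment and no animal age. There was 1 library per line and state, and nothing in the labels gives separate cultures, so p-values measure the spread between these libraries and a level in a line has no error of its own.

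ADP-ribosylation is the transfer of ADP-ribose from NAD onto proteins or nucleic acids. PARP10, PARP11, PARP12 and PARP14 are known to attach single ADP-ribose units. PARP9 binds ADP-ribose through macrodomains and acts in a complex with DTX3L. In interferon-treated cells the receptor-bound kinases JAK1 and TYK2 activate transcription factors, among them STAT2, which with IRF9 binds the interferon-stimulated response element in the promoters of target genes. The gamma-activated site is a second promoter element of interferon-responsive genes.

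Jak1 itself had less RNA in each knockout library than in its wild-type partner, at 86.7 and 74.4 FPKM in 45555, 63.1 and 27.5 FPKM in 47298 and 16.1 and 14.2 FPKM in 45566B (wild type, then knockout). In the lines with a single state it stood at 19.4 FPKM (33373 wild type), 54.6 FPKM (33377 wild type) and 22.97 FPKM (46295 knockout). A level summed over the whole gene does not resolve a deleted exon, so these values check the labels weakly. A library held 567403 to 721751 summed FPKM, and its depth relative to 45566B wild type, read from the steps between low values, was 0.416 (46295) to 0.766 (33377). The number of fragments is unknown, so no counting interval is given. The columns of 33373 and 33377 lack the suffix of the other 7. Fold changes of the 6 genes that rest on these libraries are also given without them.

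Wild-type libraries of 45566B, 33373 and 33377 held the highest levels of all 6 genes. The knockout library was lower than the wild-type library of its own line in all 3 lines for 5 of the 6 genes, against 13.3% of the 12063 genes tested. Parp10 was the exception, with a higher value in the knockout library of 47298. Summed over the 6 genes, the level was 39.7 FPKM in wild type and 13.9 FPKM in knockout for 45555, 71.5 and 50.3 FPKM for 47298, and 223 and 39.4 FPKM for 45566B. It was 186 FPKM in 33373, 153 FPKM in 33377 and 59.5 FPKM in 46295 knockout. In these bulk cultures fewer expressing cells and less RNA per cell cannot be told apart. Each of the 6 genes passed the filter at a mean of 1 FPKM in every comparison.

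**Figure D1:**
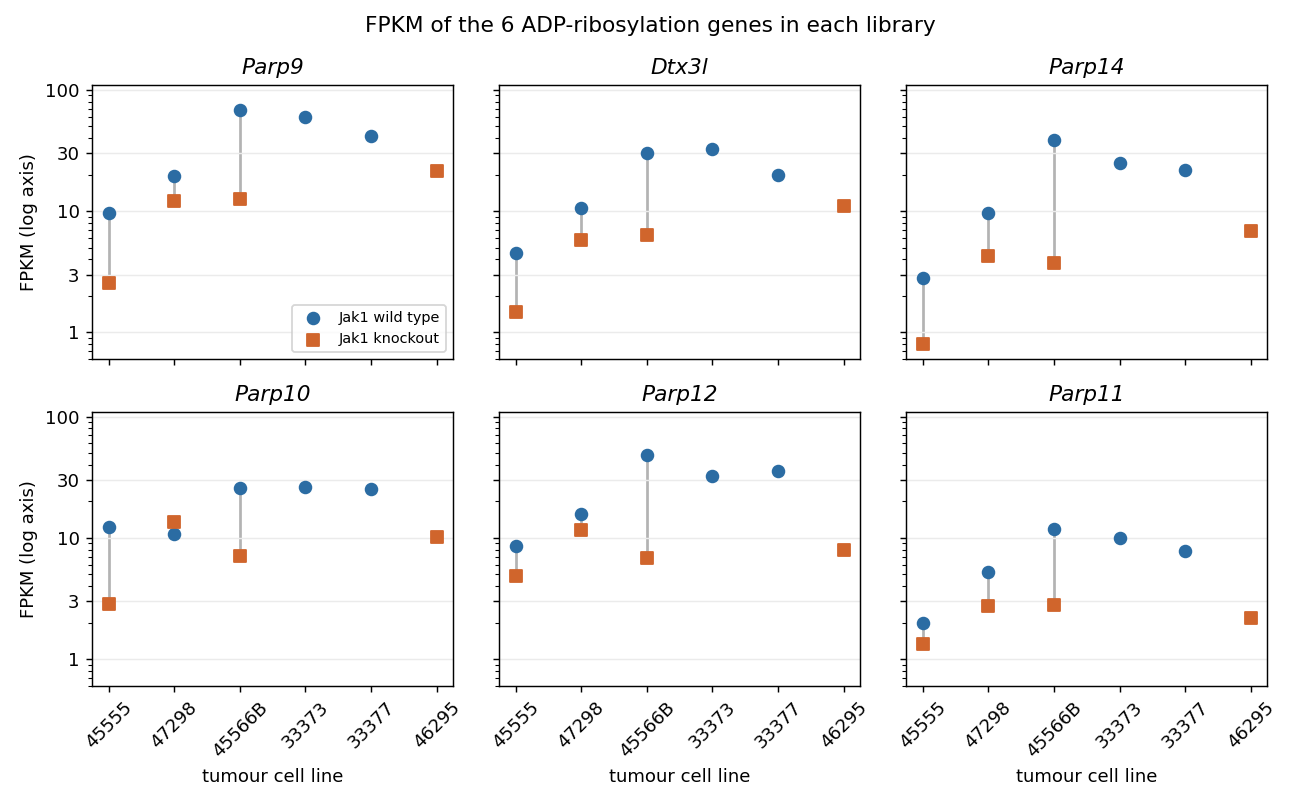
FPKM of each gene (vertical log axis) in each tumour cell line (horizontal axis), with 1 point per library. Blue circles are Jak1 wild type, orange squares Jak1 knockout, and grey lines join the libraries of a line. The 3 wild-type libraries at 45566B, 33373 and 33377 lie highest in each panel, and Parp10 in line 47298 is the 1 pair in which the knockout point is above the wild-type point.

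Parp9, Dtx3l and Parp14 lie together on chromosome 16 in build mm10. Parp14 runs from 35832874 to 35871544 on the minus strand, Dtx3l from 35926511 to 35939151 on the minus strand, and Parp9 from 35938470 to 35972605 on the plus strand. The block from the lower end of Parp14 to the upper end of Parp9 spans 139.7 kb. Parp9 and Dtx3l are arranged head to head and overlap by 682 bp, in which 458 bp are exonic in both genes, 9.40% of the exonic bases of Parp9 and 8.0% of those of Dtx3l. The sources used here do not say whether strand was recorded, so fragments from that stretch cannot be assigned to 1 of the 2 genes.

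Parp9 had wild-type values of 9.62 (45555), 19.3 (47298), 68.3 (45566B), 59.8 (33373) and 41.7 FPKM (33377). Its knockout values were 2.56 (45555), 12.2 (47298), 12.6 (45566B) and 21.3 FPKM (46295). The 2 groups overlapped, because the knockout library of 46295 exceeded the wild-type libraries of 45555 and 47298. Within a line the wild-type level was 3.76 times the knockout level in 45555, 1.58 times in 47298 and 5.42 times in 45566B. Fold changes here are knockout minus wild type on the log2(FPKM + 1) scale, fitted with limma within lines, and a gene was called at an adjusted p under 0.05. The value for Parp9 over the 3 lines was -1.51 (SE 0.38, 95% interval -2.55 to -0.48, n = 3 lines; limma, adjusted p = 0.762).

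Dtx3l, which ubiquitylates histones and other substrates with PARP9 as its partner, had wild-type values of 4.53, 10.7, 30.2, 32.7 and 19.95 FPKM in the same order of lines. The 4 knockout libraries held 1.47, 5.80, 6.34 and 11.1 FPKM. As with Parp9, the groups overlapped, and 46295 was the highest knockout library and 45555 the lowest library in each state. The wild-type level was 3.09, 1.84 and 4.77 times the knockout level in 45555, 47298 and 45566B, and the log2 fold change over the 3 lines was -1.34 (SE 0.31, 95% interval -2.20 to -0.49; limma, adjusted p = 0.762).

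Parp14, a large macrodomain enzyme known as a coactivator of STAT6 in interleukin-4 signalling, ran through 2.80, 9.61, 38.7, 25.1 and 21.97 FPKM in wild type. Its knockout values were 0.802, 4.29, 3.76 and 6.86 FPKM, and the groups overlapped because 45555 wild type lay below all knockout libraries but its own. Its level spanned 48.2 times from the lowest library (45555 knockout) to the highest (45566B wild type), the widest span of the 6 genes. In 45566B the wild-type level was 10.3 times the knockout level, against 3.49 times in 45555 and 2.24 times in 47298. Over the 3 lines the log2 fold change was -1.71 (SE 0.50, 95% interval -3.07 to -0.36; limma, adjusted p = 0.762).

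The ratio of Parp9 to Dtx3l varied little while both levels spanned a wide range. It was 2.13 in 45555 wild type and 1.74 in 45555 knockout, 1.81 and 2.11 in 47298, and 2.26 and 1.99 in 45566B. It was 1.83 in 33373, 2.09 in 33377 and 1.92 in 46295. The highest ratio was thus 1.29 times the lowest, whereas Parp9 itself spanned 26.7 times and Dtx3l 22.3 times over the same libraries. For the other 14 pairs that can be formed from the 6 genes, the highest ratio was 1.88 times (Parp12 to Parp11) to 6.54 times (Parp14 to Parp10) the lowest. What the shared exonic stretch adds to the steadiness of the Parp9 to Dtx3l ratio was not tested.

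**Figure D2:**
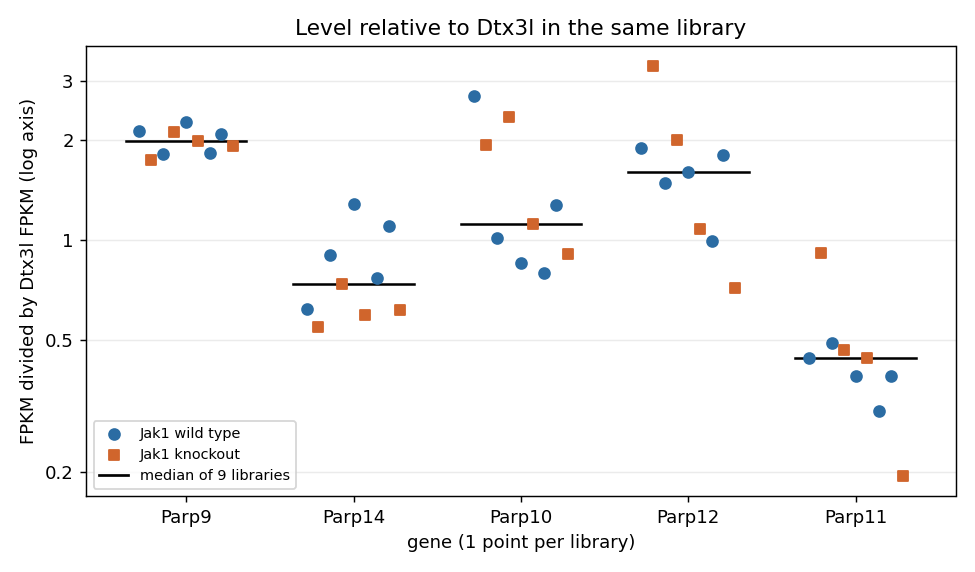
FPKM of 5 genes divided by the FPKM of Dtx3l in the same library (vertical log axis), with 1 point per library, blue circles for Jak1 wild type, orange squares for Jak1 knockout and a black bar at the median of the 9 libraries. Parp9 stays between 1.74 and 2.26 times Dtx3l, while Parp11 ranges from 0.195 to 0.912 times.

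Profiles across the 9 libraries were compared by the root mean square distance between log2(FPKM + 1) values, each gene centred on its own mean. This is a description over 9 libraries of 6 lines, which share the high wild-type libraries. Among 12197 other genes, the nearest to Parp9 was Dtx3l (distance 0.16) and the next was Parp14 (0.27). The nearest to Parp14 were Parp9 and Dtx3l (0.32). The first gene outside the chromosome 16 block was Trim21, which encodes an antibody-binding ubiquitin ligase, at 0.36 from Parp9 and 0.31 from Dtx3l. Trim21 was thus nearer to Dtx3l than Parp14 was (0.32). After Parp9 and Dtx3l, the gene nearest to Parp14 was Tap1 (0.38), a subunit of the peptide transporter for antigen presentation. Unlike the genes of the block, those that flank it were not lower in knockout in each of the 3 lines. Hspbap1, 4397 bp beyond Parp14, had a log2 fold change of 0.03 (SE 0.25) over the 3 lines and was lower in knockout in 1 of them. Kpna1, an importin 6145 bp beyond Parp9, had 0.47 (SE 0.25) and was also lower in 1 of 3 (limma, adjusted p = 0.976 and 0.762).

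Parp10 (chromosome 15, 76231174 to 76243441, minus strand) encodes an enzyme with RNA-recognition and ubiquitin-interaction motifs. Wild-type values were 12.2 (45555), 10.8 (47298), 25.9 (45566B), 26.1 (33373) and 25.4 FPKM (33377). Knockout values were 2.83 (45555), 13.6 (47298), 7.07 (45566B) and 10.1 FPKM (46295), and the groups overlapped. The wild-type libraries of 45566B, 33373 and 33377 were closer to one another than for the other 5 genes, at 25.8 ± 0.334 FPKM (SD, n = 3). Within a line the wild-type level was 4.32 times the knockout level in 45555 and 3.66 times in 45566B, but 0.793 times in 47298. Its log2 fold change was -1.07 (SE 0.50, 95% interval -2.45 to 0.31; limma, adjusted p = 0.762), -0.71 without line 45555, and -1.76 with an SE of 0.19 without line 47298 (adjusted p = 0.971 and 0.530). Parp10 overlaps Plec, the gene of the cytoskeletal linker plectin, by 1401 bp on the same strand. It shares 205 exonic bp with Plec, 4.795% of its own exonic bases. In 47298 Plec was at 32.5 FPKM in wild type and 26.4 FPKM in knockout, lower where Parp10 was higher. Grina, the gene on its other side, had a log2 fold change of -0.74 (SE 0.32) over the 3 lines (limma, adjusted p = 0.762). Grina was lower in knockout in all 3 lines, by little in 47298 (239.909 and 239.852 FPKM), and Plec in 1 of 3. The nearest profiles to Parp10 were Psme2 and Psme1, which encode subunits of the proteasome activator PA28 (distances 0.30 and 0.32), followed by C920025E04Rik (0.33). Parp14 was in place 274 and Parp9 in place 67 in that order, and the distance of 0.71 between Parp10 and Parp14 was the largest between any pair of the 6 genes.

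Parp12 (chromosome 6, 39086410 to 39118349, minus strand) encodes a zinc-finger enzyme that restrains the replication of several viruses. The wild-type libraries held 8.56, 15.8, 48.4, 32.6 and 35.9 FPKM and the knockout libraries 4.88, 11.6, 6.84 and 7.95 FPKM, in the same order of lines. Outside line 45566B, where the wild-type level was 7.08 times the knockout level, the differences within a line were small, at 1.75 times in 45555 and 1.36 times in 47298. The log2 fold change over 3 lines was -1.26 (SE 0.51, 95% interval -2.66 to 0.14; limma, adjusted p = 0.762), and -0.56 without 45566B. The 2 groups overlapped, since the wild-type library of 45555 was below the knockout library of 47298. The higher-coordinate flanking gene, Kdm7a, had -0.72 (SE 0.26; limma, adjusted p = 0.762) and was lower in knockout in all 3 lines. The nearest profiles of Parp12 were Oas1b, an oligoadenylate synthetase (0.20), Tap1 (0.22) and Gbp6, a guanylate-binding protein (0.24).

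Parp11 (chromosome 6, 127446840 to 127494261, plus strand) encodes an enzyme known to modify proteins of the nuclear envelope. It had the lowest median of the 6 genes, 2.79 FPKM. Wild-type libraries held 1.99, 5.24, 11.8, 9.98 and 7.79 FPKM and knockout libraries 1.34, 2.72, 2.79 and 2.17 FPKM. The 4 knockout values were close together, and 1 wild-type library, that of 45555, lay among them. The wild-type level was 1.49, 1.93 and 4.22 times the knockout level in 45555, 47298 and 45566B. Its log2 fold change was -0.95 (SE 0.34, 95% interval -1.88 to -0.02; limma, adjusted p = 0.762), and -0.55 without 45566B. Ccnd2, a cyclin gene 294647 bp away and the nearest tested neighbour, had -0.90 (SE 0.73; limma, adjusted p = 0.763) and was lower in 2 of the 3 lines. The nearest profiles of Parp11 were Adar, an RNA-editing deaminase (0.23), Eif2ak2, the RNA-activated kinase PKR (0.25), and Gm6548 (0.27), and Parp12 was in place 5 (0.30).

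Promoter windows of 300 bases (250 before to 50 after the start, RefSeq, GRCm38.p6) were at hand for Dtx3l, Parp12 and Parp11, the last with 2 starts. They were searched on both strands for the core of the interferon-stimulated response element, read as GAAA, then any 2 bases, then GAAA, and for the gamma-activated site TTCNNNGAA. The response element core was in 3.44% of the 32851 windows of the table and the gamma-activated site in 8.30%. The bases before the start are shown 5′ to 3′ on the strand of the gene because these genes had lower levels together in the knockout libraries. Capitals mark matched motifs, and annotated UTR bases are left out. The windows lie at chr6:127446590-127446839 (plus strand), chr6:39118350-39118599 (minus strand) and chr16:35939207-35939277 (minus strand, ending 179 bases before the RefSeq start of Dtx3l).
Parp11: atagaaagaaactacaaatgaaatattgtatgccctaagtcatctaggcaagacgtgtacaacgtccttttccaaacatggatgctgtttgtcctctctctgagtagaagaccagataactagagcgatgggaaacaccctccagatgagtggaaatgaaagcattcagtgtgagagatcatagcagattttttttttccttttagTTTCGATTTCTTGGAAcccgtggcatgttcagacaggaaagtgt
Parp12: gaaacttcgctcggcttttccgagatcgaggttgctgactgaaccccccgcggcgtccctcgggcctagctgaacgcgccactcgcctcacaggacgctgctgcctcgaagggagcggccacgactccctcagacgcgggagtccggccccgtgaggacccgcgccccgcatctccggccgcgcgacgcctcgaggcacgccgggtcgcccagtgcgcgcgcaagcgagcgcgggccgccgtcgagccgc
Dtx3l: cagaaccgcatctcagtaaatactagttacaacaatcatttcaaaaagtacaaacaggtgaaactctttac

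The upstream start of Parp11 held both motifs, and they overlapped. The response element core, read as TTTCGATTTC on this strand, ran from base 44 to base 35 before the start, and the gamma-activated site TTCTTGGAA from base 37 to base 29. Neither motif was in the window of the second Parp11 start, nor in those of Parp12 and Dtx3l, where no match says that these letters are absent from 300 bases and no more. The Parp12 stretch was 73.6% G and C with 41 CG dinucleotides in 250 bases, and the Parp11 stretch was 40.4% with 5.

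Line by line, the 3 pairs differed in how far the 6 genes stood from the rest. In 45566B all 6 were lower by more than 1 on the log2(FPKM + 1) scale, against 2.17% of 12063 genes, and their differences of -1.73 (Parp10) to -3.06 (Parp14) held places 101 to 162 from the lowest. In 45555, 4 of the 6 passed that mark against 6.68% of genes, namely Parp10 (-1.79), Parp9 (-1.58), Dtx3l (-1.16) and Parp14 (-1.08), while Parp12 (-0.70) and Parp11 (-0.36) did not. In 47298, 1 of the 6 passed it, Parp14 at -1.0045, against 11.0% of genes, so the genes did not stand apart there. The median difference of the 6 genes was -2.22 in 45566B, -1.12 in 45555 and -0.68 in 47298, against 0.01, -0.03 and 0.01 over all tested genes. A single library per state allows no test of these differences between lines.

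**Figure D3:**
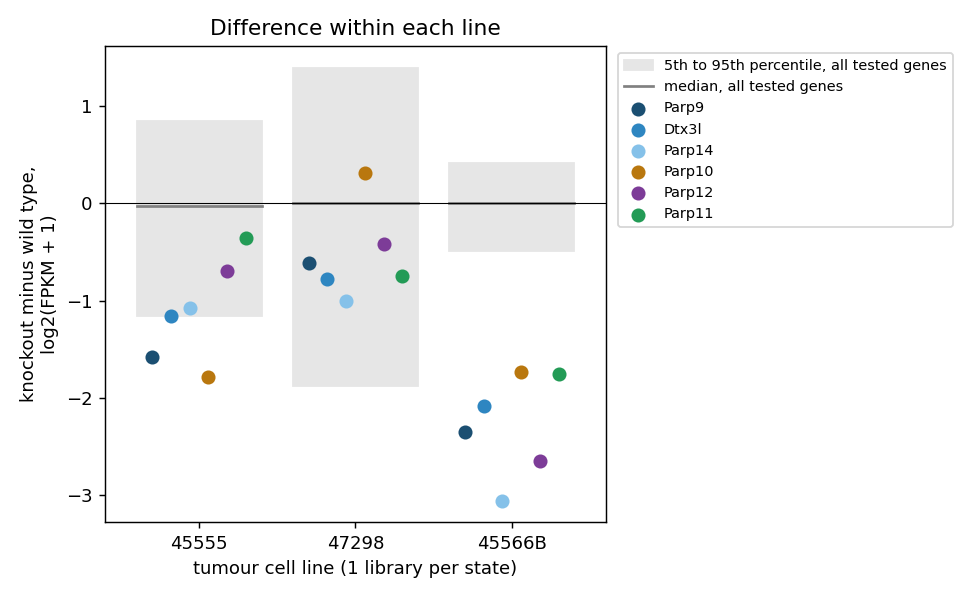
Knockout minus wild type on the log2(FPKM + 1) scale (vertical axis) within lines 45555, 47298 and 45566B, with 1 coloured point per gene, a grey box from the 5th to the 95th percentile of the 12063 tested genes and a line at their median. In 45566B the 6 points lie below the box, and in 47298 they lie inside it.

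Of epithelial and fibroblast markers, 10 of each, the fibroblast list differed between the states in lines 45555 and 47298. The epithelial list differed in 47298 and was mostly under 1 FPKM in 45555. Both lists differed little in 45566B. In 47298 the summed fibroblast level was 6524 FPKM in wild type and 465 FPKM in knockout, and of 8 fibroblast markers at 1 FPKM or more in either library 7 were lower and 1, Dcn, was higher. The epithelial sum there was 101 and 417 FPKM, nearly all of it Krt18 (52.7 and 250.3 FPKM) and Krt8 (38.5 and 156.6 FPKM). Of 5 epithelial markers at 1 FPKM or more in either library, 4 were higher and 1, Krt19 (5.97 and 0.307 FPKM), was lower. Each of the 5 differed by more than 1 on the log2(FPKM + 1) scale. Cldn3 (1.89 and 5.64 FPKM) and Erbb3 (0.557 and 2.85 FPKM) were among the higher ones, and Epcam was at 0.324 and 0.581 FPKM. In 45555 the fibroblast sum was 6427 and 4759 FPKM, and all 8 markers at 1 FPKM or more were lower in knockout, 3 of them by more than 1 on the log2(FPKM + 1) scale. Those 3 were Col3a1 (883 and 241 FPKM), Pdgfra (143 and 41.3 FPKM) and Dcn (1.71 and 0.321 FPKM). The epithelial sum in 45555 was 7.20 and 7.45 FPKM, with 1 of 10 markers, Krt19, at 1 FPKM or more. In 45566B, where the 6 genes differed most, the epithelial sum was 3166 and 3173 FPKM, the fibroblast sum 1.84 and 3.00 FPKM, and no marker of either list differed by more than 1. Over the states, fibroblast sums ran from 1.84 to 6524 FPKM in wild type and from 3.00 to 4759 FPKM in knockout, and epithelial sums from 7.20 to 3166 and from 7.45 to 3183 FPKM. Of 10 immune cell markers, 9 were under 1 FPKM in each library, with Cd3e and Cd3g at 0 throughout. The exception was Cd68, a lysosomal glycoprotein, at 106 FPKM in 46295 and between 0.426 and 17.7 FPKM in the other 8. The 5 endothelial markers summed to 0.194 to 6.63 FPKM. The part of these markers in the levels in 45555, 47298 and 46295 was not tested.

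Over the 3 lines limma called 0 of the 6 genes, and 0% of all 12063, at an adjusted p under 0.05 with the line as a block. At an unadjusted p under 0.05, 4 of the 6 were lower (Parp9, Dtx3l, Parp14 and Parp11), against 1.86% of genes. The median log2 fold change of the 6 genes was -1.30, against -0.01 over all genes. Without 45566B the values of Parp14 (-1.04), Parp12 and Parp11 shrank by more than 1.5 times.

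In the panel of 5 libraries that the labels tie to the larger table (wild type 45566B, 33373 and 33377, knockout 45566B and 46295), the 2 states did not overlap for any of the 6 genes. Each knockout value was under each wild-type value for 6 of 6, against 6.43% of the 11838 genes tested. Without 33373 and 33377, which leaves 1 wild-type library, 29.9% of genes met this mark. The 6 genes were bound to meet it there, having done so in all 5 libraries, so this is no check. Parp12 had the widest gap, its lowest wild-type library holding 4.10 times its highest knockout library, and Dtx3l the narrowest, at 1.79 times. Mean wild-type levels were 38.9 ± 8.34 FPKM for Parp12, 28.6 ± 8.87 FPKM for Parp14, 56.6 ± 13.6 FPKM for Parp9, 27.6 ± 6.76 FPKM for Dtx3l and 9.85 ± 2.00 FPKM for Parp11 (SD, n = 3).

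The log2 fold change in the panel was -2.23 for both Parp14 (SE 0.38) and Parp12 (SE 0.27), -1.70 for Parp9 (SE 0.35) and -1.63 for Parp11 (SE 0.29). It was -1.57 for Dtx3l (SE 0.36) and -1.50 for Parp10 (SE 0.24). Parp12 had the smallest adjusted p of the 6, at 0.179, and the others had 0.410 (Parp10 and Parp14), 0.473 (Parp11), 0.730 (Parp9) and 0.976 (Dtx3l, all by limma). limma called 0 of the 6 genes and 0% of all genes, while at an unadjusted p under 0.05 all 6 of the genes were lower, against 1.33% of genes. Without 33373 and 33377 the values were -1.51 (Parp10) to -2.70 (Parp14). That fit has 1 wild-type library, which is assumed to vary like the 2 knockout libraries. In this panel fibroblast marker sums were 1.84 to 3239 FPKM in wild type and 3.00 to 16.8 FPKM in knockout, with the highest in 33377, and epithelial sums 163 to 3166 and 3173 to 3183 FPKM.

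The 2 knockout libraries of the panel differed most for the chromosome 16 genes. The level in 46295 was 1.69 times that in 45566B knockout for Parp9, 1.76 times for Dtx3l and 1.83 times for Parp14. It was 1.42 times for Parp10, 1.16 times for Parp12 and 0.779 times for Parp11. With 1 library of each, these ratios have no replicate check.

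Across all 9 libraries (5 wild type, 4 knockout), which include those of the other comparisons, the states overlapped for each of the 6 genes. The log2 fold changes were -1.86 (SE 0.71) for Parp14, -1.59 (SE 0.69) for Parp9, -1.56 (SE 0.48) for Parp12, -1.45 (SE 0.63) for Dtx3l, -1.23 (SE 0.44) for Parp10 and -1.22 (SE 0.42) for Parp11. limma called 0 of 6 and 0% of 12198 genes (adjusted p = 1.000 for each of the 6), and at that unadjusted mark 6 of 6 were lower, against 0.959% of genes. Without the knockout library of 45555 the value of Parp9 was -1.05. Without 33373 and 33377 the values were -0.94 (Parp10, SE 0.53) to -1.43 (Parp14, SE 0.86), and the unadjusted count was not repeated.

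The rest of the ADP-ribosylation system was described from lists of the other PARP genes, hydrolases, readers and NAD enzymes, none of which had a gene past the threshold in any of the 3 comparisons. The 11 other PARP family genes, which include the DNA-damage enzymes Parp1 and Parp2 and the tankyrases, had a median log2 fold change of -0.16 over the 3 lines (9 lower, 2 higher) and 0.13 in the panel (5 lower, 6 higher). Their summed level was 182 to 219 FPKM in wild type and 174 to 195 FPKM in knockout. Zc3hav1, the catalytically inactive antiviral family member also called ZAP, had the lowest fold change of them, -0.60 (SE 0.20) over the 3 lines and -0.96 (SE 0.32) in the panel (limma, adjusted p = 0.762 and 0.999). The wild-type libraries held 51.5, 30.2, 51.1, 32.6 and 38.6 FPKM and the knockouts 40.3, 21.9, 24.8 and 16.4 FPKM in knockout. Parp3 had -0.37 (SE 0.34) and Parp1 0.36 (SE 0.19) over the 3 lines (limma, adjusted p = 0.774 and 0.762).

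Hydrolases and erasers of ADP-ribose numbered 9 tested of 11 listed over the 3 lines, with 7 lower and 2 higher and a median of -0.16. Nudt16 (-1.26, SE 0.73), Macrod1, a macrodomain hydrolase (-0.74, SE 0.26), and Adprh, an arginine-specific hydrolase (-0.65, SE 0.29), differed most. Adprhl1 was listed at 0 in each library. Readers and linked ubiquitin ligases, among them the other deltex genes, had 6 lower and 4 higher of 10 with a median of -0.04. Dtx3 had -0.54 (SE 0.38), Xrcc1 0.34 (SE 0.16) and Rnf146, the ligase that recognises poly(ADP-ribose), -0.28 (SE 0.15). Each of these 6 genes had an adjusted p of 0.762 by limma.

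Among 6 tested NAD synthesis genes 5 were lower over the 3 lines, with a median of -0.43, where 51.4% of all genes were lower. In the panel 3 were lower and 2 higher (median -0.02), and over the 9 libraries 3 were lower and 4 higher (median 0.05). Nampt, the rate-limiting enzyme of NAD salvage, had wild-type values of 45.5, 30.8, 45.996, 30.1 and 39.7 FPKM and knockout values of 22.7, 8.65, 18.99 and 13.2 FPKM. Its 2 states did not overlap in the 9 libraries. Its log2 fold change was -1.31 (SE 0.21) over the 3 lines and -1.21 (SE 0.30) in the panel (limma, adjusted p = 0.762 and 0.999). Naprt, which makes NAD from nicotinic acid, had -1.64 (SE 0.58), with 4.91 FPKM in 45555 wild type and 0.233 FPKM in its knockout, 9.28 and 0.719 FPKM in 47298, and was under 0.3 FPKM in the other 5 libraries. Nmnat2 had -0.55 (SE 0.33; limma, adjusted p = 0.762 for both).

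Interferon transducers and a reference list of interferon targets were set beside these values. Of 11 transducers, Jak1 among them, 10 were lower over the 3 lines (median -0.52), with Irf9 at -2.36 (SE 0.35) and Stat2 at -1.87 (SE 0.28). In the panel 7 transducers were lower and 4 higher (median -0.28). Of 13 tested reference targets 13 were lower over the 3 lines, with a median of -2.24 against -1.30 for the 6 genes. In the panel 14 of 14 targets were lower, with a median of -3.49 against -1.66. Of all genes, 51.4% were lower over the 3 lines and 47.7% in the panel. Irf7 (-3.17, SE 0.85), Oasl2 (-2.67, SE 0.54) and Isg15 (-2.63, SE 0.38) differed most over the 3 lines. limma called 0 members of either list (adjusted p = 0.762 for each gene named over the 3 lines). The genes nearest to the mean profile of the 6 were Tap1 (0.20), Trim21 (0.24), Ddx58, the RNA sensor RIG-I (0.26), Eif2ak2 (0.27) and Ifi35 (0.31).

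**Figure D4:**
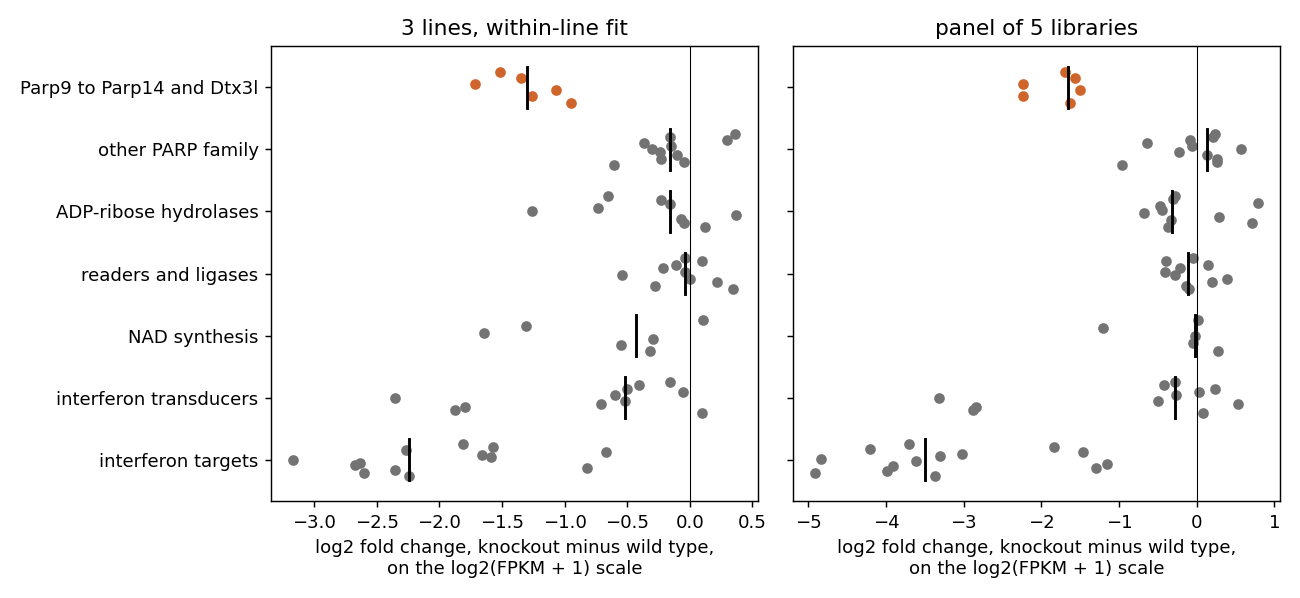
Log2 fold change, knockout minus wild type on the log2(FPKM + 1) scale (horizontal axis), of each gene in 7 lists (rows), in the fit within 3 lines (left) and in the panel of 5 libraries (right). Points are genes, orange for Parp9, Parp10, Parp11, Parp12, Parp14 and Dtx3l, and black bars are list medians. The 6 genes lie between -0.95 and -1.71 on the left, below the median of each other ADP-ribosylation list and above that of the interferon targets (-2.24).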

How the data were processed

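Total RNA of 9 cell line libraries was reverse transcribed with oligo-dT primers and prepared with a TruSeq kit, per the labels' protocols. The authors deposited FPKM per gene symbol in 2 tables. The submitters' processing notes name cutadapt, TopHat2 2.1, Cufflinks 2.2, Cuffnorm and mm10. The sources used here give neither the annotation nor the scaling option. The smaller table repeats 4 columns of the larger with identical values, and the larger was used, without 4 rows that carry repeated date-like names.

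Tests were two-sided fits of limma 3.58.1 (R 4.3.3) to log2(FPKM + 1), with variances moderated towards a trend on the mean. Genes needed a mean FPKM of 1 or more, and p-values were adjusted over all tested genes (Benjamini-Hochberg, threshold 0.05). Fold changes on this scale understate those of low genes. Line was a block in the fit of 3 lines, because the labels give the 2 libraries of a line the same number. Their deviations from the group means correlated at 0.700 (45555), 0.399 (47298) and 0.804 (45566B). The other fits had no block. The code was tested on simulated data. Positions are from GENCODE vM21 (GRCm38, the assembly of mm10).

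The 6 genes, the lists and the tests were chosen with earlier results of these data known. Named genes were the 6, Jak1, the 3 genes of each pathway list with the largest difference over the 3 lines, the 3 profiles nearest to each gene, the 5 nearest to their mean, and flanking genes. The Cd68 and Plec levels and the marker genes given singly were singled out after their values were seen. 1 gene that this rule names is not reported here. Alternatives were the pseudocount, filter, scaling, prior variance, block and left-out libraries. A planned comparison of protein sequences was not run.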

Additional observations from a re-analysis of the deposited data

Results flagged for a closer look

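Parp10 differed in direction between lines. Its knockout minus wild-type difference on the log2(FPKM + 1) scale was -1.79 in line 45555 and -1.73 in line 45566B but 0.31 in line 47298, so 1 line lay on the opposite side of 0 from the other two. With 1 library per state, this difference between lines was not tested.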

How the results depend on the processing

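All 216 alternative log2 fold changes of the 6 genes, 1 per gene and fit over the 3 comparisons, stayed negative. Their adjusted p (limma) stayed above the threshold of 0.05. These values reuse the same 9 libraries, so they are not 216 separate checks. The count of called genes was 0 in each comparison. It was 4 in the panel at a pseudocount of 0.1. With 1 line left out, the 3-line count ran from 0 to 6, the 6 being without line 47298. With 1 library left out, the 9-library count ran from 0 to 1, the 1 being without either library of 45555 or the knockout library of 45566B. None of the 6 genes was among these calls. The number of the 6 genes lower in every line ran from 5 to 6 (6 without 47298), where 20.4% to 29.6% of all genes were lower in both lines left. This number could not fall under 5, because a gene lower in all 3 lines is lower in those left. In the panel, leaving libraries out cannot make a non-overlapping gene overlap, so the count of 6 was fixed and is no check. With any 1 library left out, 9.71% to 24.4% of all genes did not overlap in this direction.

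Without the replicate block, 0 genes were called over the 3 lines, and the SE of Parp9 was 0.87 in place of 0.38 at the same fold change of -1.51. With line as a random replicate block, 0 were called over the 9 libraries (Parp14 -1.76, adjusted p = 0.555). In the panel, with 1 line in both states, a fixed block left 0 residual degrees of freedom and a random block gave an estimated correlation for 0 of 11838 genes. The 9-library fit without 33373 and 33377, where Parp14 was -1.43, the random block in the panel and the alternatives for counts of non-overlapping and lower genes were chosen after seeing the data.

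The fragments behind each value are unknown, and the lowest value, 0.802 FPKM for Parp14, is close to the pseudocount of 1. With 1 library per line and state, no difference within a line has a replicate check.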
